A study of Rattus norvegicus with 12 samples.

Results

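TGF-beta and bone morphogenetic protein (BMP) signalling genes were read on 12 arrays of rat tissue from alcoholic animals and their paired controls. Members were the array features whose single gene symbol named a TGF-beta or BMP ligand, an inhibin or GDF, one of their receptors, a Smad, a latent TGF-beta binding protein, or Fst, Nog, Chrd, Eng or Amh. That symbol rule gave 48 of 18144 features, which were 24 clones spotted in duplicate and carried 20 gene symbols. The tissue was punched from slices and is called NTS in the labels. There were 6 animals labelled alcoholic and 6 labelled control, joined into 6 animal pairs with 1 array each, and the series title calls the treatment ethanol. Strain, sex, age, dose and length of treatment are not given in the sources used here, so nothing further on the model can be stated.

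On each array the animal's RNA carried Cy5 and a reference RNA of unstated make-up carried Cy3. Values are log2 ratios, taken here as animal over reference, which the dyes make likely although the deposited values carry no statement of it. Every sign below turns if the ratio runs the other way. Each array was centred on the median of its features, and the 2 spots of a clone were averaged. A ratio is relative to what the reference holds of the same gene, so ratios of different genes do not rank their abundance.

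TGF-beta and BMP ligands are secreted dimers that bind paired type I and type II serine/threonine kinase receptors. The receptors phosphorylate receptor-regulated Smads, which join Smad4 and enter the nucleus, while Smad6 and Smad7 damp the signal. TGF-betas are secreted in a latent form held by latency proteins, and antagonists such as noggin and follistatin bind ligands outside the cell. In nervous tissue this family is known for roles in patterning, astrocyte differentiation, neuronal survival and the blood vessel wall.

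The family stood at nearly the same level in alcoholic and control animals. The median difference over the 24 clones, alcoholic minus control, was 0.04 on the log2 scale, against 0.0067 over all 11852 clones tested. The widest differences were 0.26 for Tgfb2 and -0.15 for Bmp4, and 15 of the 24 lay within 0.1 of 0. With limma, Benjamini-Hochberg adjustment and pairs fitted as a block, 0 of the 24 had an adjusted p under 0.05, where 0% of all clones did. The smallest adjusted p was 0.999 among the members as among all clones. At an unadjusted p under 0.05 the count was 0 of 24, where 2.37% of all clones passed. Single members were selected by symbol, but the family itself was chosen by its differences in this same contrast, where most clones of a similar list had stood slightly higher. Its differences are therefore given as a description that supports nothing further. In whole tissue, fewer cells of a type and less RNA per cell cannot be told apart.

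How far a change could have gone unseen is bounded by the intervals. For 24 of 24 clones the 95% interval stayed inside 2-fold in both directions, where 86.3% of all clones tested had such an interval. For 21 of 24 it stayed inside 1.5-fold, where 65.9% did. The exceptions were Tgfb2, Tgfb3 and Ltbp4. Every member was spotted in duplicate, as were 5577 of the 12537 clones on the array. The shares over all clones are therefore from unlike measures. Over the family, the interval bound farthest above 0 allowed a 1.61-fold higher level (Ltbp4) and the bound farthest below 0 a 1.61-fold lower one (Tgfb3). These bounds hold for the reported processing only. The difference of Tgfb3 read 1.12 with exact zeros kept as values and -0.84 on its first spot, so its interval is no firm bound. The median standard error of a member was 0.16, the same to 2 decimals as over all clones.

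**Figure D1:**
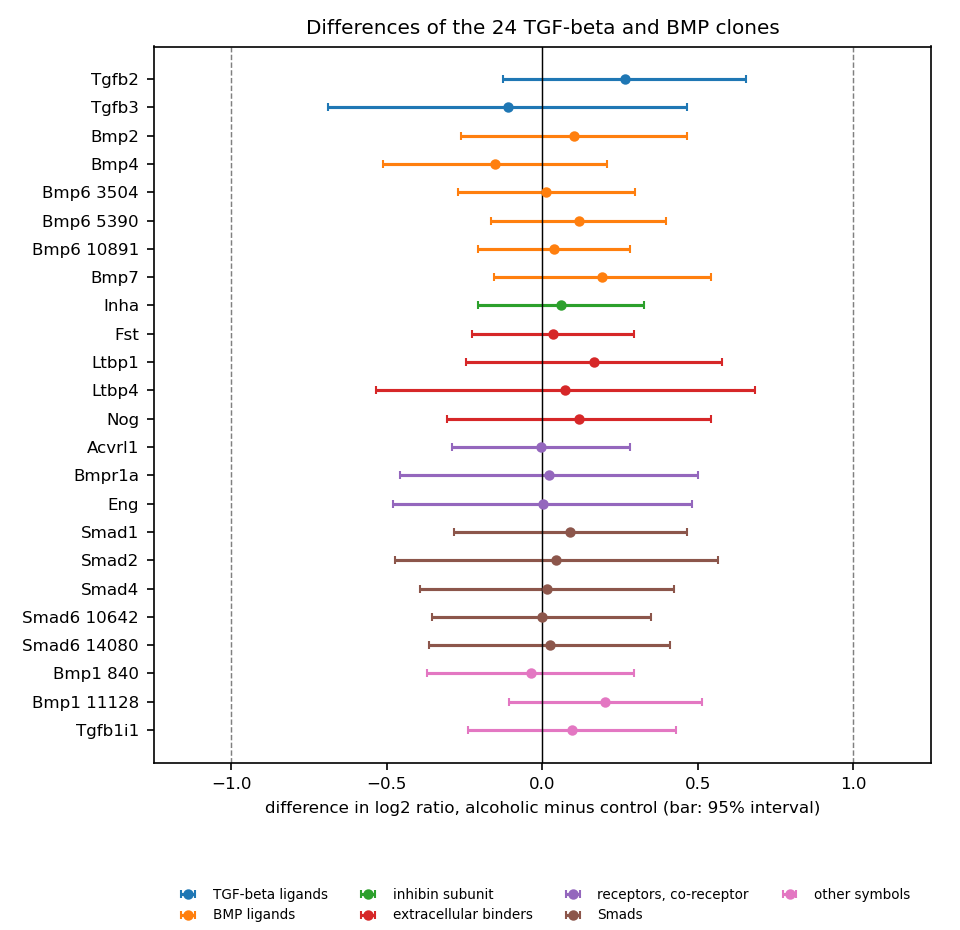
Difference in log2 ratio, alcoholic minus control, of each of the 24 clones (points) with its 95% interval (bars), coloured by role; dashed lines mark a 2-fold change. Names with a number are clones of one gene, given by their first array feature. Under the reported processing all 24 intervals include 0 and none reaches a dashed line.

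More clones stood above 0 than below it, and all 24 intervals include 0. A positive difference was found in 19 of 24 clones, where 51.8% of all clones had one, and a negative difference in 5 of 24, where 48.2% had one. Without centring of the arrays the split was 11 positive to 13 negative. The median of all clones then moved to -0.05, and 37.6% of all clones were positive. Without pair 1 the split was 14 to 10, where 47.8% of all clones were positive. By role, 5 of 6 BMP ligand clones, 4 of 4 extracellular binders, 4 of 5 Smads, 2 of 3 receptors, 1 of 2 TGF-beta ligands and the inhibin subunit were on the positive side. The same symbol rule also caught Bmp1 and Tgfb1i1, which are neither ligands nor receptors, with 2 of 3 clones positive.

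Among the TGF-beta ligands, Tgfb2 and Tgfb3 were measured. Tgfb2 encodes a ligand made by neurons and glia as well as many other cells. Its centred log2 ratio ran from -3.36 through a median of -2.89 to -2.67 in alcoholic animals. In controls it ran from -3.87 through -3.20 to -2.63. The groups overlapped, and the highest value of all 12 was that of a control animal, in pair 3. The difference was 0.26 (SE 0.17, 95% interval -0.13 to 0.66), with 5 of 6 pairs higher and pair 3 lower. It came to 0.14 without pair 2 and to 0.38 without pair 3. Of the 11017 clones measured in every pair, 8.56% were higher in at least 5 of 6 pairs. Among the 23 members so measured 4 were: Tgfb2, Bmp7, Bmp2 and a Bmp1 clone. At least 5 of 6 pairs were lower in 0 of these members, where 8.01% of the 11017 clones were. One direction in all 6 pairs was found in 0 of these members, where 1.61% of the 11017 clones had it.

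Tgfb3, the third TGF-beta isoform, was the least well measured member. Its values ran from 1.11 through 2.39 to 4.25 in the 6 alcoholic animals. The 5 controls with a value ran from 1.76 through 2.19 to 3.86, and the control of pair 1 had no value at either spot. The 2 spots of this clone disagreed by a median of 1.22 and by up to 4.97, in the alcoholic animal of pair 1, where they read 6.73 and 1.76. Over the 5 complete pairs the difference was -0.11 (SE 0.24, interval -0.69 to 0.47), although the alcoholic mean of 2.62 ± 1.06 (SD, n = 6) stood above the control mean of 2.41 ± 0.84 (SD, n = 5). The alcoholic animal of pair 1 has no partner in the paired difference.

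BMP ligands were represented by Bmp2, Bmp4, Bmp7 and by 3 clones of Bmp6. Bmp7, a ligand also known as osteogenic protein, had a median of -1.22 in alcoholic animals, within a range of -1.61 to -0.69. Its control median was -1.41, within -1.74 to -1.15. The groups overlapped, and the alcoholic animal of pair 1 was the highest. Bmp7 differed by 0.19 (SE 0.15, interval -0.16 to 0.54), which came to 0.09 without pair 1 and 0.29 without pair 6.

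Bmp4, a ligand of dorsal patterning and astrocyte differentiation, was the lowest of the members by difference. Its alcoholic values ran from -1.14 through -0.88 to -0.39 and its control values from -1.20 through -0.58 to -0.32. The lowest and the highest of the 12 were both control animals. The difference was -0.15 (SE 0.15, interval -0.51 to 0.21), with 3 pairs higher and 3 lower. Pairs 2, 3 and 4 lay at -0.49, -0.55 and -0.45, and pairs 1, 5 and 6 at 0.18, 0.19 and 0.19. Without pair 3 the difference was -0.07 and without pair 5 it was -0.22. The alcoholic animal of pair 3 had a value at only 1 spot. Fitted apart, the first spot gave -0.19 and the second, in 5 pairs, 0.01.

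Bmp2, a ligand close to Bmp4 in sequence, had a difference of 0.10 (SE 0.16), positive in 5 of 6 pairs and -0.63 in pair 4, which came to 0.03 without pair 6 and 0.25 without pair 4. The 3 clones of Bmp6, a ligand known from iron homeostasis and bone, differed by 0.12, 0.04 and 0.01. Of these the clone on features 5390 and 5391 ran from 0.47 through 0.69 to 0.89 in alcoholic animals and from 0.31 through 0.57 to 0.86 in controls, so most of the 2 ranges overlapped. Its difference of 0.12 had an interval from -0.16 to 0.40. The tightest member of all was the Bmp6 clone on features 10891 and 10892, whose standard error was 0.10 and whose interval ran from -0.21 to 0.28.

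The single activin and inhibin member was Inha, the alpha subunit that turns an activin beta chain into an inhibin. Its mean ratio was 1.81 ± 0.17 (SD, n = 6) in the alcoholic group. Controls had a mean of 1.75 ± 0.12 (SD, n = 6). Values ran from 1.61 through 1.79 to 2.07 in the alcoholic group and from 1.62 through 1.73 to 1.96 in the control group. Inha varied least between animals of all 24 clones, with an SD of 0.15 over the 12 arrays. It differed by 0.06 (SE 0.11, interval -0.21 to 0.33), with pair 3 at 0.46 and the other 5 pairs between -0.09 and 0.11.

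The extracellular partners on the array were Ltbp1, Ltbp4, Nog and Fst, and each had a small positive difference. Ltbp1, which holds latent TGF-beta in the matrix, ran from -3.60 through -3.28 to -2.93 in alcoholic animals. In controls it ran from -4.00 through -3.52 to -2.59, so the control range enclosed the alcoholic one. The difference of 0.17 (SE 0.18, interval -0.24 to 0.58) came to 0.04 without pair 1, the pair with the widest difference, 0.81. Ltbp1 had the lowest ratio to the reference of all members, with a mean of -3.35, followed by Tgfb2 with -3.10.

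Nog encodes noggin, which binds BMPs and keeps them from their receptors. Its values lay between 2.13 and 2.95 in alcoholic animals, with a median of 2.67, and between 1.83 and 3.25 in controls, with a median of 2.56. Noggin thus stood at a high ratio to the reference in all 12 animals, and its mean of 2.55 was the highest of the family, just above the 2.52 of Tgfb3. The difference was 0.12 (SE 0.18, interval -0.31 to 0.54), and it was -0.03 without pair 3.

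Fst encodes follistatin, which binds activins. It ran from -1.73 through -1.31 to -0.96 in alcoholic animals and from -1.87 through -1.41 to -0.97 in controls. These ranges nearly coincided, and the difference was 0.03 (SE 0.11, interval -0.23 to 0.29). Ltbp4, a second latency protein, differed by 0.07 with the widest standard error of the family, 0.26. Its control animal of pair 5 stood at 1.49 while the other controls lay between -0.03 and 0.54. The Ltbp4 difference was 0.34 without pair 5 and -0.06 without pair 1, and its spots gave -0.15 and 0.30.

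Receptors had the smallest median difference of the roles, 0.00083 over 3 clones, which is the value of Eng alone. Acvrl1 encodes ALK1, a type I receptor of endothelial cells. Its values ran from -1.56 through -1.38 to -1.02 in alcoholic animals and from -1.51 through -1.36 to -1.05 in controls, a near match. The difference was -0.0042 (SE 0.12, interval -0.29 to 0.28). Eng encodes endoglin, an endothelial co-receptor that works with ALK1. It ran from 1.36 through 1.53 to 1.90 in alcoholic animals and from 1.28 through 1.36 to 2.11 in controls.

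Endoglin's mean difference was 0.00083 (SE 0.21, interval -0.48 to 0.48). It joined spots at 0.18 and -0.18, and pairs that went opposite ways. Pairs 1 to 4 were higher, by 0.18, 0.38, 0.59 and 0.24, and pairs 5 and 6 lower, at -0.76 and -0.62. The controls of pairs 5 and 6 were the highest of all 12 animals for this gene. Bmpr1a, a type I receptor for BMPs, showed the same kind of spread, from -2.38 through -1.85 to -1.40 in alcoholic and from -2.30 through -1.85 to -1.32 in control animals. It differed by 0.02 (SE 0.21, interval -0.46 to 0.50), with pair 1 at 0.88 and pair 2 at -0.56.

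**Figure D2:**
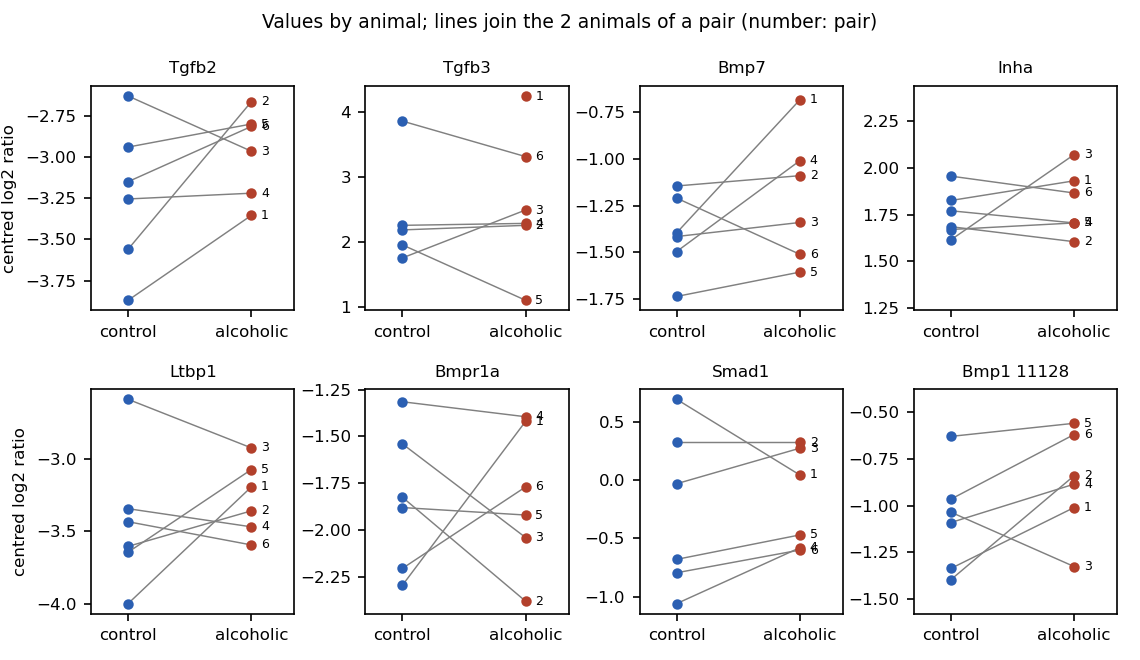
Centred log2 ratio in each control (blue) and alcoholic (red) animal for the clone with the smallest unadjusted p in each role, and for Tgfb3; lines join the animals of a pair and numbers name it. The y axes differ between panels. Lines cross in every panel with 6 pairs, and the 2 groups overlap in all 8 panels.

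Smads carry the signal from receptor to nucleus. Smad1, which answers to BMP receptors, ran from -0.60 through -0.21 to 0.33 in alcoholic and from -1.06 through -0.36 to 0.70 in control animals. The animals of pairs 1, 2 and 3 all stood at -0.03 or above, and those of pairs 4, 5 and 6 all at -0.47 or below. The pair means of Smad1 had an SD of 0.54, and the differences within pairs an SD of 0.39, from -0.65 in pair 1 to 0.48 in pair 4. The group difference was 0.09 (SE 0.16, interval -0.28 to 0.46). No label tells these pairs apart, and the pattern was noticed in the values.

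Smad2, which answers to TGF-beta and activin receptors, had a similarly wide spread. It ran from -1.63 through -0.69 to -0.38 in alcoholic animals and from -1.71 through -0.66 to -0.29 in controls. Both animals of pair 2 and the control of pair 1 stood below -1.4, and the other 9 animals at -0.88 or above. Pair 1 therefore differed by 1.21, the widest positive difference of any member in any pair, while the mean difference was 0.05 (SE 0.22, interval -0.47 to 0.56) and -0.19 without pair 1. The spots of this clone agreed closely, with a median gap of 0.05.

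Smad4, the partner shared by both branches, differed by 0.01 (SE 0.17), with pairs 3 and 4 at 0.52 and 0.53 and pair 5 at -0.59. Smad6, an inhibitory Smad, was read by 2 clones, which differed by 0.02 and -0.0025. The first of them, on features 14080 and 14081, ran from -2.74 through -2.46 to -2.19 in alcoholic animals and from -3.21 through -2.45 to -1.73 in controls. Its control values spread more widely on both sides, with an SD of 0.56 against 0.19.

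Another 3 clones carried symbols that the rule caught by their spelling. Bmp1 encodes a secreted metalloprotease that cleaves procollagen and the BMP antagonist chordin, and is not a BMP ligand. Its clone on features 11128 and 11129 ran from -1.33 through -0.86 to -0.56 in alcoholic animals. In controls it ran from -1.40 through -1.06 to -0.63, so the alcoholic values sat slightly higher within a shared range. The difference was 0.20 (SE 0.13, interval -0.11 to 0.51), with 5 of 6 pairs higher. The other Bmp1 clone, on features 840 and 841, differed by -0.04 (SE 0.14, interval -0.37 to 0.30), with values from 0.43 through 0.86 to 1.13 in alcoholic and from 0.17 through 0.91 to 1.30 in control animals. Tgfb1i1 encodes Hic-5, a focal adhesion protein induced by TGF-beta. It ran from -1.09 through -0.94 to -0.82 in alcoholic and from -1.40 through -1.13 to -0.57 in control animals, and differed by 0.10 (SE 0.14, interval -0.24 to 0.43).

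None of the 24 clones separated the groups: non-overlapping values were found in 0 members, where 0.0169% of all clones had them. Relative to the reference, 8 members had a mean ratio above the array median and 16 below it. The SD of a member over the 12 animals had a median of 0.29. Member means ran from -3.35 to 2.55, a range that also depends on what the reference holds.

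**Figure D3:**
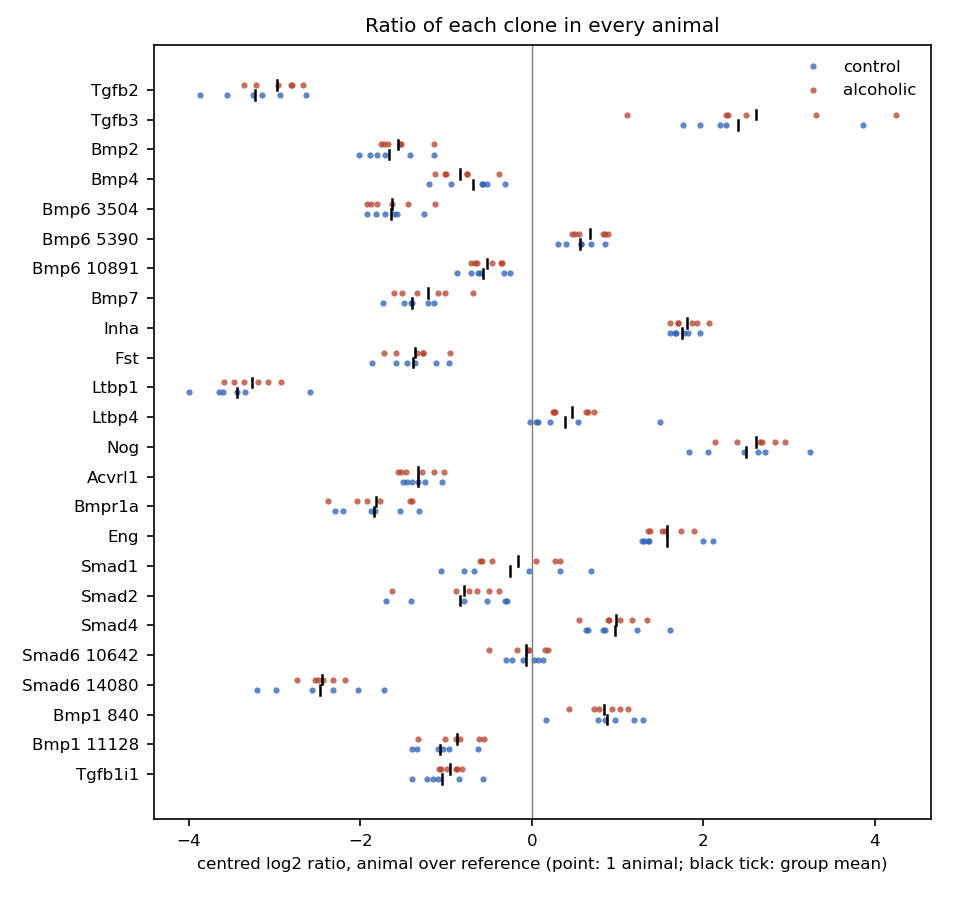
Centred log2 ratio of each clone (rows) in every animal, with controls in blue, alcoholic animals in red and group means as black ticks; 0 is the array median. Members spread from Ltbp1 at a mean of -3.35 to Nog at 2.55, while the 2 groups overlap in every row.

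Clones under 1 symbol did not share a ratio. The 3 Bmp6 clones had means of -1.64 ± 0.26, -0.55 ± 0.19 and 0.62 ± 0.19 (SD, n = 12 arrays each), with no overlap among their values. Those of Bmp1 stood at 0.86 ± 0.32 and -0.97 ± 0.28, and those of Smad6 at -0.07 ± 0.21 and -2.46 ± 0.40. The ratio thus depended on the clone read, for a cause that was not tested. Which transcript each clone reads was not tested, since the annotation is an older one and no clone was checked against sequence.

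The member median was positive in 5 of 6 pairs, and single members changed direction between pairs. In pair 1, 17 of 23 measured members were higher in the alcoholic animal, with a member median of 0.18, where 56.2% of all clones were higher. In pair 2, 13 of 24 were higher, with a median of 0.06, where 49.6% of all clones were higher. Pair 3 also had 13 of 24, with a median of 0.12, where 50.8% were. In pair 4, 15 of 24 were higher, with a median of 0.04, where 49.4% were, and in pair 5, 15 of 24, with a median of 0.08, where 51.9% were. Pair 6 had 11 of 24 higher and a median of -0.05, where 43.6% of all clones were higher and their median was -0.07. Pair differences of a member had a median SD of 0.38, close to the 0.40 of all clones.

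**Figure D4:**
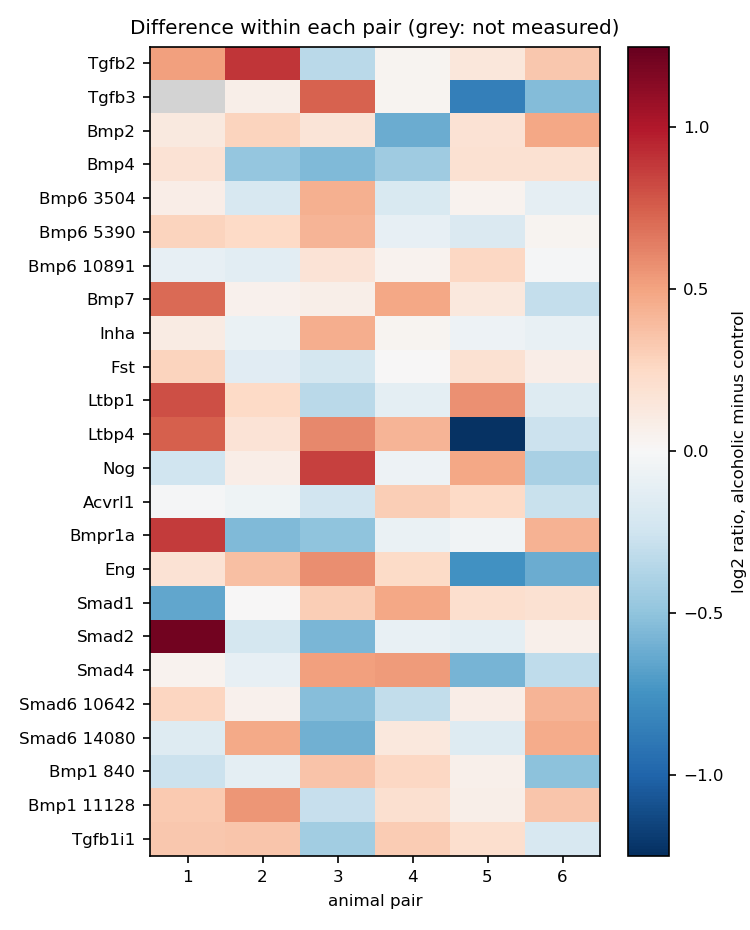
Difference in log2 ratio, alcoholic minus control, within each animal pair (columns) for each clone (rows), red where the alcoholic animal was higher and blue where it was lower. No row has one colour throughout; the darkest cells are Smad2 in pair 1 (1.21) and Ltbp4 in pair 5 (-1.24).

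Duplicate spots show how far 2 readings of a clone on the same arrays lay apart. The 2 spots of a member lay a median of 0.17 apart, against 0.19 over the 5577 clones with 2 spots. Fitted apart, the spots gave differences of opposite sign for 14 of 23 members, with a median gap of 0.16 and a widest gap of 0.57. That gap is between single spots, so it is not on the footing of the standard errors, which are for the mean of both. How much of a difference comes from the array was not tested. Tgfb2 gave 0.26 at both spots and Bmp7 gave 0.18 and 0.21, whereas Nog gave 0.40 and -0.17 and Smad6 (features 14080 and 14081) 0.31 and -0.26. The spots share 1 hybridization and are no replicates of an animal. Missing spot values were 6 of 576 in the family, or 1.04%, against 3.35% over all features, and 5 of the 6 belonged to Tgfb3.

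**Figure D5:**
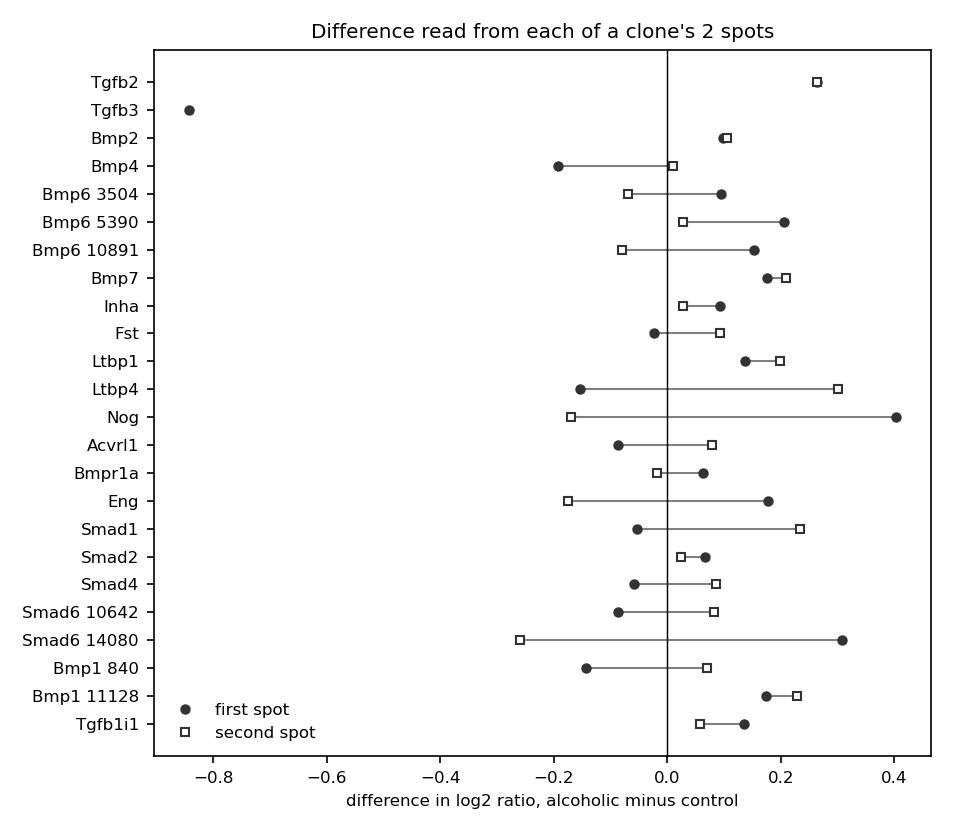
Difference in log2 ratio, alcoholic minus control, fitted from the first (filled circles) and the second spot (open squares) of each clone. Tgfb3 has only its first spot, at -0.84, since the second was measured in too few pairs; Tgfb2 reads 0.26 at both.

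Other genes of the pathway were not called either. Of 77 other genes listed for the pathway, 19 had at least 1 clone tested, in 22 clones; the remaining 58 were not tested here. Their median difference was 0.03, with 14 clones higher and 8 lower, and limma gave 0 clones an adjusted p under 0.05. At an unadjusted p under 0.05 there was 1 of 22, where 2.37% of all clones passed. That clone was Fstl1, a secreted follistatin-like glycoprotein. It ran from -3.50 through -3.23 to -2.05 in alcoholic animals and from -4.17 through -3.39 to -2.49 in controls, with overlapping groups. Fstl1 was higher in 6 of 6 pairs, with a difference of 0.33 (SE 0.12, interval 0.04 to 0.62), and its adjusted p by limma was 0.999.

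The next 3 by unadjusted p were a clone of Fbn1, one of Id4 and that of Crebbp. Fbn1 encodes fibrillin-1, the microfibril protein to which latency proteins attach, and its clone on feature 16889 differed by 0.30 (SE 0.17, interval -0.10 to 0.69). A second Fbn1 clone differed by -0.12. Id4 is a target of BMP signalling; its 2 clones differed by 0.35 (SE 0.26) and -0.19 (SE 0.16). Crebbp, a coactivator used by Smads, differed by 0.31 (SE 0.25, interval -0.28 to 0.90). For both Fbn1 and Id4 the clones of one gene thus lay on opposite sides of 0. The widest differences, named after their values were seen, had wide errors: a clone of Smurf2, a ubiquitin ligase of Smads and receptors, stood at -0.86 (SE 1.00, 5 pairs) and its other clone at -0.02, while Pmepa1, a TGF-beta target, stood at 0.57 (SE 0.52).

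Markers of the cell types that the punches can hold had list medians between -0.09 and 0.22. The astrocyte list had 5 of 11 genes tested, all 5 clones positive, with a median of 0.22 and a mean level from -0.41 to 1.14 in alcoholic and from -0.40 to 0.36 in control animals. Endothelial and vessel wall markers had 7 of 11 tested, with 1 of 7 positive and a median of -0.09. Mean levels of that list lay between -0.42 and 0.04 in alcoholic and between -0.21 and 0.04 in control animals. Meningeal and choroid plexus markers had 6 of 8 clones positive and a median of 0.14. Positive clones numbered 3 of 5 for neurons, 4 of 6 for catecholamine and NTS neurons, and 2 of 3 for oligodendrocytes. They numbered 4 of 5 for microglia and 5 of 7 for blood, with medians of these 5 lists between 0.00083 and 0.06. Over all clones 51.8% were positive. The part of these cell types in the family's small differences was not tested. Among genes listed for catecholamine and other NTS neurons, 6 were tested (Ddc, Gal, Npy, Phox2a, Pomc and Slc18a2), while Th and Dbh were not, and a ratio to a reference cannot show that a marker is present.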

How the data were processed

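The authors deposited 1 log2 ratio per feature and array. No step of background correction, normalization or filtering is recorded in the sources used here. Base 2 was inferred from the largest size, 13.92. The 12 uncentred array medians lay between 0.35 and 1.85. Exact zeros (484 to 726 per array) were taken as missing. Names came from an older annotation of the platform: 10118 with 1 symbol, 1092 with several and 6934 with none. Another 2 features that carry Smad2 beside another gene were left out. Features sharing accession and symbol were averaged into a clone, and different clones of a gene were kept apart, since missing values at different levels would move a mean. Clones with at least 4 complete pairs were tested (11852 of 12537) with limma 3.58.1 in R 4.3.3 (lmFit, eBayes, two-sided, Benjamini-Hochberg at 0.05), and the script was tested on simulated data. The pair block comes from the sample titles. Deviations of paired arrays from their group means correlated across 11017 clones with r of 0.27, 0.34, 0.04, 0.44, 0.23 and 0.08 in pairs 1 to 6, with a mean of 0.23 against -0.05 between pairs. The number of arrays limits the precision, and signals over background were not used here.

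Per role, values were given for the 3 clones with the smallest unadjusted p, plus the 2 highest and 2 lowest mean ratios, every gene with several clones and 4 other pathway genes. Members, lists and rules were chosen with earlier results of these data known.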

Additional observations from a re-analysis of the deposited data

Results flagged for a closer look

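Of 48 groups of 5 or 6 animals examined for the 24 clones, 2 held an animal far from the rest of its group, where chance gives about 1 in 20, or 2.4. Both were control animals. Tgfb3 stood at 3.86 in the control of pair 6, with the other 4 measured controls between 1.76 and 2.26, and only 1 of its 2 spots was measured there. Ltbp4 stood at 1.49 in the control of pair 5, with the other controls between -0.03 and 0.54, and its spots read 2.30 and 0.68 on that array.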

How the results depend on the processing

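Under the 18 alternatives to the reported processing, 0 members passed an adjusted p of 0.05. Over all clones the count stayed 0 except without centring, where 2 passed; the smallest adjusted p elsewhere lay between 0.0731 (without pair 3) and 1. At an unadjusted p under 0.05, 281 clones passed, 136 without the pair block, and 220 to 427 with 1 pair left out, the highest without pair 3. Among the members 0 passed it, with 2 exceptions. Without pair 3 it was 2 of 24, where 427 of 11639 clones passed. With each feature on its own it was 1 of 47, where 406 of 17012 features passed. Positive members numbered 19 of 24, 11 of 24 without centring, 32 of 47 with each feature on its own, and 14 to 19 with 1 pair left out. The positive shares over all clones or features were 51.8%, 37.6%, 51.7% and 47.8% to 53.9%, in the same order. The cause of these moves was not tested. The family's median lay between -0.01 (not centred) and 0.08 (single features). Leaving out 1 pair changed the difference of each of the 24 clones by over 1.5 times at least once, within -0.32 (Tgfb3) and 0.38 (Tgfb2), both without pair 3. No sign change occurred for Tgfb2, Bmp7, Bmp2, Ltbp1, Tgfb1i1, the Bmp1 clone on feature 11128 and the Bmp6 clone on feature 5390; the other 17 clones changed sign at least once. Of 448 member values under alternatives, 2 moved by more than the SD of pair differences. Both were for Tgfb3, which read 1.12 with exact zeros kept and -0.84 on its first spot. That count is no measure of stability. Leaving out 1 pair cannot move a mean difference by that SD, and several settings leave the estimates unchanged by construction.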
